A study of Homo sapiens with 9 samples.

Results

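The comparison described here set SKOV3 cells expressing Tyr19Phe CDK9 directly against SKOV3 cells expressing WT CDK9 and treated with an ALK inhibitor for 24 h, to ask which genes separate a mutation that removes Tyr19 from a drug that blocks the kinase reported to phosphorylate it. Its members were the 3 Tyr19Phe libraries and the 3 inhibitor libraries, 6 of the 9 in the series, taken by their labels. The other 3 libraries, untreated cells expressing WT CDK9, were used only to place each difference on one side or the other. SKOV3 is an established human ovarian cancer cell line known for high ERBB2, and all 3 groups were RNA of this line grown in DMEM with serum. The inhibitor and its dose are not named for this experiment in the sources used here. The study describes stable re-expression of each CDK9 form in CDK9-depleted cells for its other assays, and whether the sequenced lines were depleted or came from 1 clone each is not given. A difference between these groups therefore combines a different stable line with a drug, and the parts cannot be told apart. Phosphorylation itself was not measured in these data, and the labels do not say that replicates came from separate cultures, so p-values measure only the spread between these libraries.

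CDK9 is the kinase of P-TEFb, which with cyclin T releases paused RNA polymerase II into productive elongation by phosphorylating the polymerase tail, NELF and DSIF. P-TEFb is held inactive by the 7SK particle through HEXIM1, LARP7 and MEPCE, and is carried to genes by partners such as the AFF1 and AFF4 scaffolds of the super elongation complex. ALK is a receptor tyrosine kinase whose inhibitors are used as drugs and can act on other kinases too, whereas the mutation changes 1 residue of CDK9 in a stably expressing line.

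The position that distinguishes the mutant is codon 19 of CDK9, shown here to place the substitution. It lies at chr9:127786203-127786205 on the + strand of GRCh38, in exon 1 of 7 of transcript ENST00000373264, within the coding region. The reference bases of chr9:127786176-127786232, from the GRCh38 genome with GENCODE annotation, are given 5′ to 3′ with the tyrosine codon in capitals.
CDK9 codon 19: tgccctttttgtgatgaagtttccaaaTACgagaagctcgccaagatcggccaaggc

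The counts do not separate introduced from endogenous CDK9. Total CDK9 was 43.8, 47.3 and 45.7 CPM (TMM-scaled read counts relative to library size) in the inhibitor libraries and 52.4, 53.1 and 59.5 CPM in the Tyr19Phe libraries. The groups did not overlap, and the difference was 0.27 ± 0.08 on the log2 scale (SE, edgeR quasi-likelihood test, Benjamini-Hochberg adjusted p = 0.00961). The call was lost without ALK inhibitor replicate 1 (adjusted p = 0.0523) or Tyr19Phe replicate 3 (adjusted p = 0.0811). ALK itself had 0 to 5 counts per library and was too low to test.

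Total counts ranged from 18169050 to 20974903 in the inhibitor libraries and from 26485891 to 29320184 in the Tyr19Phe libraries. ALK inhibitor replicate 2 and Tyr19Phe replicate 3 stood apart from their groups, with the fewest genes detected of all 9 libraries (19944 and 20635), and list counts that moved by over 1.5 times without both are given beside them. WT replicate 3 differed from the other WT libraries on principal component 3, an axis of joint variation over all libraries (-44.8 against 3.58 and 12.4). It was kept in that fit. Of 9 tested SKOV3 markers 3 were higher and 3 lower in Tyr19Phe cells, against 9.57% and 11.1% of all tested genes. The summed level of these markers was 5874 to 6000 CPM with the inhibitor and 5170 to 5395 CPM with Tyr19Phe. PAX8, a factor of the Müllerian lineage, had at least 4877 counts in every library. Of the same marker list, MUC16 had only 0 to 9 counts and WT1 7 to 52 counts per library. Of 10 markers of blood, endothelial, fibroblast and liver cells, the collagens COL1A1 and COL1A2 passed the filter and both were lower in Tyr19Phe cells. The other 8 summed to at most 1.10 CPM in any library. In bulk RNA, fewer cells of a type and less RNA per cell cannot be told apart.

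The direct contrast separated the groups widely. Of 16350 genes tested, 1565 (9.57%) were higher and 1822 (11.1%) lower in Tyr19Phe cells than in inhibitor-treated cells. The median absolute difference of called genes was 0.35 on the log2 scale, and 147 of the higher and 192 of the lower genes differed by at least 1. The libraries of the groups did not overlap in 3229 of the 3387 called genes, against 34.4% of all genes tested. Without the libraries that stood apart, 1035 genes were higher, of which 963 were called in both fits, and 1173 genes were lower in both fits. No gene called in both fits changed direction.

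Placing each called gene by its own test against WT showed that genes called in Tyr19Phe cells alone were the largest class. Against WT, 1245 genes (7.61%) were higher and 1695 (10.4%) lower in Tyr19Phe cells, and 297 (1.82%) were higher and 447 (2.73%) lower with the inhibitor (4.55% in either direction). The balance against WT depended on the scaling, with 1544 higher and 1451 lower for Tyr19Phe and 406 higher and 344 lower for the inhibitor by library size alone, and 1474 and 1483 for Tyr19Phe by the upper quartile. These comparisons share the WT libraries. Of the 3387 genes called in the direct contrast, 1801 (53.2%) were called against WT in Tyr19Phe cells only and 279 (8.24%) with the inhibitor only. Another 96 genes (2.83%) were called the same way in both but moved by different amounts, and 93 (2.75%) were called in both in opposite directions. The remaining 1118 (33.0%) were called against WT in neither group, with 587 of them higher and 531 lower in Tyr19Phe cells.

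**Figure D1:**
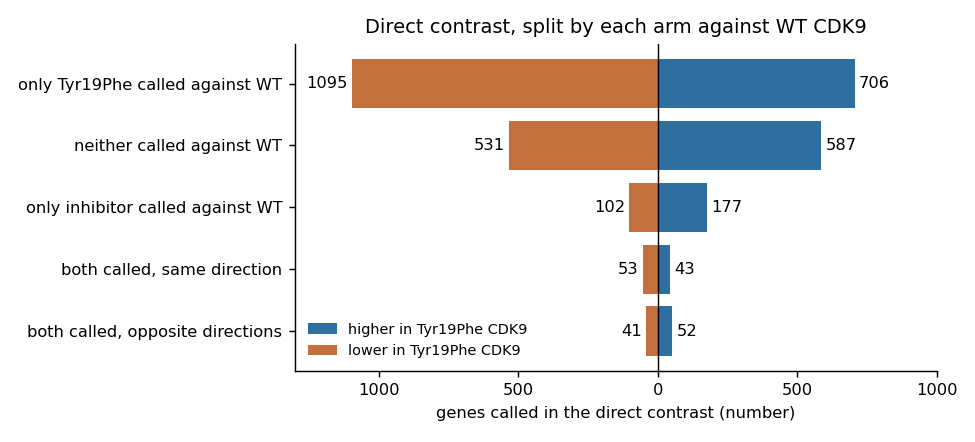
Number of genes called in the direct contrast, higher or lower in Tyr19Phe cells than in inhibitor-treated cells, grouped by which group was also called against WT (edgeR, adjusted p under 0.05). Genes called only in Tyr19Phe cells form the longest bars (706 higher and 1095 lower), and 52 and 41 genes moved in opposite directions.

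Genes called against WT in both groups in opposite directions were few. By point estimates alone, called against WT or not, 2260 of the 3387 genes of the direct contrast lay on opposite sides of WT. The inhibitor lowered and Tyr19Phe raised 52 genes (0.318% of those tested), 49 of them protein-coding, with direct differences from 0.26 to 2.01 and a median of 0.60 on the log2 scale. The inhibitor raised and Tyr19Phe lowered 41 genes (0.251%), all protein-coding, with absolute direct differences from 0.22 to 2.61 and a median of -0.78. All 93 were also called in the direct contrast. In 46 of the 52 and 40 of the 41, all 9 libraries were ordered by group with WT in the middle, an order found in 1.33% and 1.32% of all tested genes. The rule that chose these genes makes both the direct call and this order likely, so neither is separate evidence. Without the libraries that stood apart, 31 of the 52 and 24 of the 41 were still called. Without WT replicate 1, the counts were 30 and 19, and without WT replicate 3 they were 33 and 31.

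**Figure D2:**
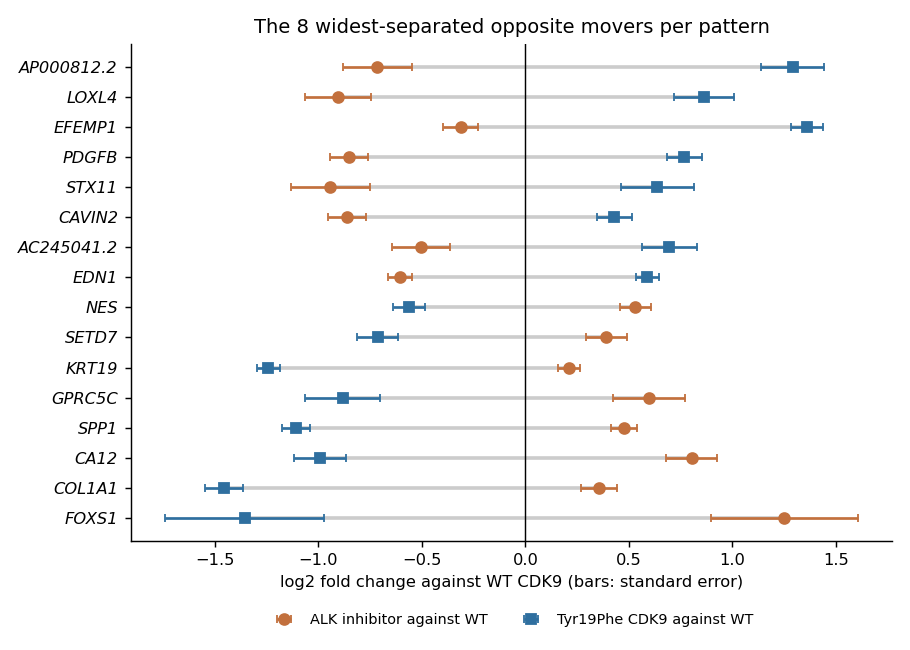
Log2 fold change against WT (x axis) of the 8 widest genes of each opposite pattern, with a circle for the inhibitor, a square for Tyr19Phe and error bars of 1 SE. The symbols of each gene lie on opposite sides of 0, by the rule that chose these genes, from -1.36 and 1.25 for FOXS1 to 0.59 and -0.60 for EDN1.

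ERBB2, the receptor tyrosine kinase for which SKOV3 is known, was among the genes raised by the inhibitor and lowered with Tyr19Phe. Its level was 2617, 2624 and 2634 CPM with the inhibitor, 1773, 1768 and 1858 CPM in WT and 1515, 1515 and 1381 CPM with Tyr19Phe. All 9 libraries were ordered by group, and the inhibitor libraries lay close together above every other library. The direct difference was -0.84 ± 0.03 (log2, SE, edgeR adjusted p = 1.17e-18), made up of 0.54 with the inhibitor and -0.29 with Tyr19Phe against WT. ERBB2 lies at chr17:39687914-39730426 in the deposited coordinates (GRCh38), on the segment that is amplified together with it in many tumors.

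Genes beside ERBB2 were examined after its values had been seen. Of the 21 tested genes within 500 kb, ERBB2 included, 1 was higher and 8 were lower in the direct contrast, with a median of -0.14. Of all tested genes, 9.57% were higher and 11.1% lower. PPP1R1B, a regulator of protein phosphatase 1, was 99.3 to 102 CPM in the inhibitor libraries, 49.4, 44.8 and 53.8 CPM in WT and 48.9, 40.5 and 44 CPM with Tyr19Phe. Only the inhibitor libraries stood above the others, and the direct difference was -1.18 ± 0.08 (edgeR adjusted p = 1.42e-13). MIEN1, which lies next to ERBB2 and is linked to cell migration, was opposite in the same way as ERBB2 (direct log2 difference -0.99), as was PGAP3, an enzyme of GPI anchor remodelling (-0.57). Genes on the other strand overlap 84.25% of MIEN1, 34.6% of PGAP3 and 25.4% of ERBB2. Whether counting used strand is not given, so reads may be shared or lost between such neighbours. STARD3, a cholesterol-binding protein of late endosomes, differed by -0.24 through the inhibitor. CDK12, MED1, MED24 and ORMDL3, in the same interval, were not called, and GSDMB, a gasdermin, was higher in Tyr19Phe cells (0.58). The whole 10 Mb window around ERBB2 had a median direct difference of 0.02.

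SPP1, the secreted phosphoprotein osteopontin, went the same way and was 329, 279 and 318 CPM with the inhibitor, 222, 217 and 228 CPM in WT and 120, 96.5 and 92.8 CPM with Tyr19Phe. No library of one group overlapped another, and the direct difference was -1.58 ± 0.07 (edgeR adjusted p = 3.92e-18), in a chromosome 4 window whose median was -0.32. KRT19, a keratin of simple epithelia, was 266, 282 and 305 CPM with the inhibitor, 230, 243 and 264 CPM in WT and 112, 99.9 and 99.9 CPM with Tyr19Phe. Its inhibitor and WT libraries were close, with the lowest inhibitor library only just above the highest WT library, while the Tyr19Phe libraries were far below both (direct -1.45 ± 0.06, edgeR adjusted p = 7.81e-19). COL1A1, a chain of fibrillar type I collagen, was 115, 149 and 136 CPM with the inhibitor, 103, 103 and 107 CPM in WT and 45.1, 38.3 and 30.4 CPM with Tyr19Phe. Again the Tyr19Phe libraries made most of the distance (direct -1.81 ± 0.09, edgeR adjusted p = 2.94e-16).

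The same pattern held for CA12, a membrane carbonic anhydrase, at 29.8, 33.4 and 30 CPM with the inhibitor, 19.7, 16.4 and 17.3 CPM in WT and 10.3, 8.43 and 8.04 CPM with Tyr19Phe. Here both sides contributed similarly, 0.80 and -0.99 against WT. FOXS1, a forkhead factor, had the widest direct difference (-2.61 ± 0.38, edgeR adjusted p = 3.35e-06) but was low, at 3.94 to 5 CPM with the inhibitor and 0.569 to 1.02 CPM with Tyr19Phe. The syndecans SDC1 (-0.60) and SDC3 (-0.41), the basement membrane protein NID2 (-0.51), the TGF-beta binding protein LTBP2 (-0.55) and the desmosomal cadherin DSG2 (-0.29) were also opposite. NES (-1.09), an intermediate filament protein of progenitor cells, and MAP2 (-1.07), a microtubule-associated protein of neurons, were both above WT with the inhibitor and below it with Tyr19Phe. HIPK2, a nuclear kinase of stress and p53 signalling, was 332, 333 and 327 CPM with the inhibitor, 259, 262 and 269 CPM in WT and 181, 185 and 181 CPM with Tyr19Phe, with no overlap and a very small spread within each group (direct -0.86 ± 0.04, edgeR adjusted p = 1.02e-16).

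**Figure D3:**
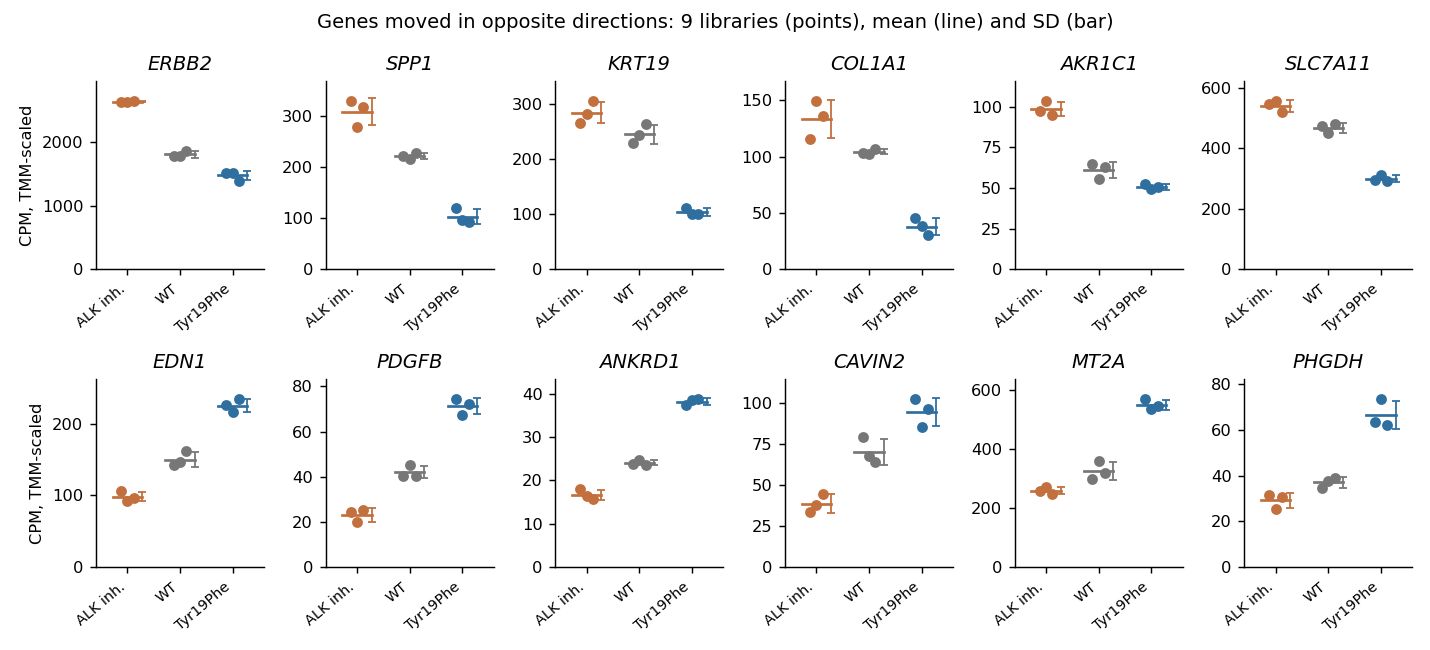
Level in CPM (y axis, linear, from 0) of opposite genes in each library of the inhibitor, WT and Tyr19Phe groups, 1 point per library, with a line for the mean and a bar for the SD (n = 3). ERBB2 goes from 2617 to 2634 CPM with the inhibitor to 1381 to 1515 CPM with Tyr19Phe, and EDN1 goes from 92.8 to 106 CPM to 216 to 235 CPM.

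Genes of carbonyl reduction and cystine uptake were also on this side. AKR1C1, an aldo-keto reductase, was 97.6, 103 and 94.8 CPM with the inhibitor, 65, 55.7 and 63.2 CPM in WT and 52.7, 49.1 and 50.8 CPM with Tyr19Phe. The inhibitor libraries were far above all others and the Tyr19Phe libraries were the lowest (direct -0.95 ± 0.07, edgeR adjusted p = 2.51e-12), although reads of the near-identical AKR1C genes may be divided uncertainly. SLC7A11, the cystine transporter that feeds glutathione synthesis, was 548, 556 and 519 CPM with the inhibitor, 474, 449 and 480 CPM in WT and 295, 313 and 292 CPM with Tyr19Phe. Its direct difference was -0.85 ± 0.04 (edgeR adjusted p = 1.02e-16), in a chromosome 4 window with a median of -0.50. AKR1C3 (-0.79), the carbonyl reductase CBR1 (-0.50), the exporter ABCC3 (-0.45) and the thioredoxin-binding protein TXNIP (-0.69) were opposite in the same way.

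Across the whole list of NRF2 antioxidant genes, 16 of the 26 tested were lower and 2 higher in Tyr19Phe cells than with the inhibitor, with a median of -0.30 where all tested genes had 0.0018. Of all tested genes, 11.1% were lower and 9.57% higher. Against WT, 15 were lower and 1 higher with Tyr19Phe and 5 were higher and none lower with the inhibitor (edgeR quasi-likelihood test). Over all tested genes these shares were 10.4% lower and 7.61% higher with Tyr19Phe and 1.82% higher and 2.73% lower with the inhibitor. The list without the libraries that stood apart gave 15 lower and 1 higher. FTL, the ferritin light chain, was 1376, 1450 and 1481 CPM with the inhibitor and 948, 957 and 917 CPM with Tyr19Phe (direct -0.61 ± 0.03, edgeR adjusted p = 4.22e-15). GSR, glutathione reductase, was lower by a similar amount (-0.63), and NQO1 (-0.37), TXNRD1 (-0.33) and the NADPH-producing enzyme PGD (-0.42) were lower by less. NFE2L2, which encodes NRF2 itself, differed by -0.22 and its inhibitor KEAP1 by 0.19. HMOX1, heme oxygenase, went against the list at 17.7, 17.9 and 15.8 CPM with the inhibitor, 13.5, 10.8 and 12.3 CPM in WT and 24.7, 26 and 25.6 CPM with Tyr19Phe, so that both groups were above WT and Tyr19Phe was the higher (direct 0.57).

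The reverse pattern, lowered by the inhibitor and raised with Tyr19Phe, included several secreted ligands. EDN1, the precursor of endothelin-1, was 106, 92.8 and 96.4 CPM with the inhibitor, 142, 146 and 162 CPM in WT and 226, 216 and 235 CPM with Tyr19Phe. WT libraries lay between the other groups with no overlap, and the distances were close in size, -0.60 and 0.59 against WT (direct 1.19 ± 0.06, edgeR adjusted p = 9.37e-17). PDGFB, a ligand of PDGF receptors, was 24.5, 19.7 and 25.2 CPM with the inhibitor, 40.3, 45 and 40.4 CPM in WT and 74.4, 67.3 and 72.2 CPM with Tyr19Phe. It differed by 1.62 ± 0.09 directly (edgeR adjusted p = 3.29e-15), in a chromosome 22 window with a median of 0.20. DKK1, a secreted Wnt antagonist (0.88), NRG1, a ligand of ERBB receptors (0.52), GDF6, a BMP family ligand (0.97), and AMH, anti-Müllerian hormone (0.96), had the same order. OXTR, the oxytocin receptor, was 68.9, 73.2 and 66.1 CPM with the inhibitor, 108, 99.6 and 108 CPM in WT and 156, 132 and 143 CPM with Tyr19Phe, again with WT in the middle (direct 1.05). Genes on the other strand overlap 100% of OXTR, so its reads are uncertain if counting ignored strand.

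Matrix-modifying genes were found here as well as on the other side. EFEMP1, a fibulin of elastic fibers, was 27, 30.5 and 34 CPM with the inhibitor, 36.7, 36.7 and 40 CPM in WT and 99, 93.6 and 98.9 CPM with Tyr19Phe, so that nearly all of its direct difference of 1.67 ± 0.08 (edgeR adjusted p = 1.02e-16) was an increase in Tyr19Phe cells. LOXL4, a collagen cross-linking oxidase, was 5.13, 7.19 and 6.61 CPM with the inhibitor, 12.7, 13 and 9.57 CPM in WT and 21, 20.2 and 23.1 CPM with Tyr19Phe. The groups were fully separated at these low levels (1.77). ADAMTS15, a secreted protease, differed by 1.05 and STX11, a membrane fusion protein, by 1.58. AP000812.2, annotated as an unprocessed pseudogene, had the widest direct difference of the pattern (2.01), whose reads are uncertain because such copies resemble their parent gene.

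Some genes of the contractile cytoskeleton and of caveolae, the flask-shaped membrane pits coated by cavins, had the same order. ANKRD1, a nuclear cofactor that is a standard target of the mechanosensitive YAP and TAZ coactivators, was 18, 16.4 and 15.8 CPM with the inhibitor, 23.9, 24.7 and 23.6 CPM in WT and 37.4, 38.5 and 38.8 CPM with Tyr19Phe. Spread within groups was much smaller than the steps between them (direct 1.19 ± 0.10, edgeR adjusted p = 7.73e-11). CAVIN2 was 33.7, 37.5 and 44.8 CPM with the inhibitor, 79.2, 67.5 and 63.9 CPM in WT and 102, 85.4 and 96.1 CPM with Tyr19Phe, with no overlap (1.29 ± 0.09, edgeR adjusted p = 8.71e-13). CNN2, an actin-binding calponin, was 216, 225 and 213 CPM with the inhibitor, 259, 272 and 261 CPM in WT and 295, 306 and 325 CPM with Tyr19Phe (0.50). TAGLN, transgelin (0.59), TPM1, tropomyosin 1 (0.28), MYL12B, a myosin regulatory light chain (0.26), CAVIN1 (0.50) and RND3, an atypical small GTPase (0.40), were opposite in the same way.

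Opposite genes were read for known elements in the 250 bases before their start sites, from RefSeq promoters on GRCh38.p14. TEAD factors, which bind DNA for YAP and TAZ, recognise CATTCC. SRF binds the CArG box. The metal response element core was searched as TGCACNC and TGCGCNC. Each was searched on both strands. The 4 stretches shown are from opposite genes described in the text, chosen because they hold a TEAD, CArG or metal response match, and capitals mark the matches. ANKRD1 is from chr10:90921088-90921337 on the - strand, CAVIN2 from chr2:191847089-191847338 on the - strand, CNN2 from chr19:1026358-1026607 on the + strand and MT2A from chr16:56608334-56608583 on the + strand.
ANKRD1 promoter: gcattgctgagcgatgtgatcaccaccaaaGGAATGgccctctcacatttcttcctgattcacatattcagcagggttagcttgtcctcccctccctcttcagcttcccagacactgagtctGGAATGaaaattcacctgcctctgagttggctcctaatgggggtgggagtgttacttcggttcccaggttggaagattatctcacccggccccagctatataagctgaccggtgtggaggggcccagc
CAVIN2 promoter: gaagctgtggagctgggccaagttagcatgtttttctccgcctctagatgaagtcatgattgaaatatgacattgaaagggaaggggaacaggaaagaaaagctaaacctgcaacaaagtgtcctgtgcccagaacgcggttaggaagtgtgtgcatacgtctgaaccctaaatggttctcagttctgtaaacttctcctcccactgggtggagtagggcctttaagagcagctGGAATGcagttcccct
CNN2 promoter: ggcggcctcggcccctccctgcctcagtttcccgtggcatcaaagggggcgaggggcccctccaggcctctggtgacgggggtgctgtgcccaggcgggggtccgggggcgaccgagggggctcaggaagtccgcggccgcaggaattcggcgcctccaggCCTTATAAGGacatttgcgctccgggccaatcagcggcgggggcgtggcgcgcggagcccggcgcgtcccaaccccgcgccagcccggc
MT2A promoter: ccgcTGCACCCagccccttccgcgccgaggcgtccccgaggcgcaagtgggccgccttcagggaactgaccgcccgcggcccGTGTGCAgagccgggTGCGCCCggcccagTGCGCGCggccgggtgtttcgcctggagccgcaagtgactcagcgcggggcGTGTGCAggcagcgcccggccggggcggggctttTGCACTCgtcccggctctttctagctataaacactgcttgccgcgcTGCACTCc

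ANKRD1 held 2 TEAD elements, CAVIN2 held 1, CNN2 held 1 CArG box and MT2A held 7 matches to the metal response element core. Of the 52 genes lowered by the inhibitor and raised with Tyr19Phe, 32 had a promoter in the table. TEAD elements were in 6 of these (18.8%), against 9.35% of the 10934 promoters of tested genes, and CArG boxes in 2 (6.25%, CNN2 and RND3), against 1.02%. The metal response element core was in 18 (56.2%), against 33.3%. Of the 29 promoters of the opposite pattern, 3 held a TEAD element, none held a CArG box and 10 (34.5%) held the metal response element core. The antioxidant response element, searched as TGACNNNGC, was in 2 of these 29 (6.90%) and in 4 of the 32 (12.5%), against 12.1%. The AP-1 site (TGACTCA or TGAGTCA), which can overlap TGACNNNGC, was in 2 of the 32 and none of the 29, against 2.66%. The ATF4 element TTGCATCA was in none of either, against 0.348%. Such matches describe letters in the window and do not establish binding.

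MT2A, a metallothionein that binds zinc and copper and protects against metal and oxidative stress, was 257, 273 and 249 CPM with the inhibitor, 300, 358 and 320 CPM in WT and 570, 537 and 545 CPM with Tyr19Phe. The Tyr19Phe libraries were far above the rest, and the inhibitor libraries were all below WT (direct 1.09 ± 0.05, edgeR adjusted p = 2.7e-17). MT1X rose alongside it in the direct contrast (1.46), but 97.4% of its length overlaps another gene on the same strand, so its reads are uncertain. SLC30A1, the zinc exporter regulated with metallothioneins, differed the other way (-0.25), and MTF1, the metal-sensing factor, was not called (0.14). PHGDH, the first enzyme of serine synthesis, was 31.5, 25.5 and 30.5 CPM with the inhibitor, 34.5, 37.7 and 39 CPM in WT and 63.4, 73.6 and 62.4 CPM with Tyr19Phe. It was again mainly the Tyr19Phe libraries that moved (1.19 ± 0.09, edgeR adjusted p = 8.02e-12).

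Mitochondrially encoded subunits of the respiratory chain were higher in Tyr19Phe cells in 12 of 13 tested genes, against 9.57% of all tested genes, with a median of 0.50. Of these subunits, 4 (MT-ND1, MT-ND2, MT-ATP6 and MT-CYB) were among the opposite genes. Their summed share was 1.49% to 1.69% of counts with the inhibitor, 1.48% to 2.13% in WT and 2.04% to 2.70% with Tyr19Phe. MT-ND1 was 661, 804 and 772 CPM with the inhibitor, 1103, 746 and 1079 CPM in WT and 1068, 1072 and 1517 CPM with Tyr19Phe. WT replicate 2 thus lay among the inhibitor libraries, and the Tyr19Phe maximum came from replicate 3, which stood apart. DESeq2 called 6 of the 13 higher, and the edgeR fit without the libraries that stood apart called 9.

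Of the 12 widest named genes per direction, most lower ones were called against WT in Tyr19Phe cells only. Higher ones were mixed, and LOXL4 was opposite. RBP7 (2.72) and NPIPB13 (2.39), the widest, and PSG3, NAV3 and EID3 were called against WT in neither group. RBP7 differed from WT by an uncalled -1.69 with the inhibitor and an uncalled 1.03 with Tyr19Phe. These genes averaged 1.03 to 1.46 CPM, and NPIPB13, PSG3 and NAV3 lost their calls when 1 library was left out. DMKN, a secreted protein of epidermis, was 9.78, 9.01 and 10.7 CPM with the inhibitor and 0.271, 0.0712 and 0.49 CPM with Tyr19Phe, near the floor of 3 counts (0.102 to 0.165 CPM). It differed by -5.14 ± 0.30 (edgeR adjusted p = 9.4e-15). CDH13, a cadherin anchored by GPI, was 49.7, 41.8 and 46.6 CPM with the inhibitor and 3.76, 3.45 and 4.15 CPM with Tyr19Phe, a wide and uniform gap (-3.60 ± 0.12, edgeR adjusted p = 4.72e-21). CREB3L1, a transcription factor of the secretory pathway (-3.37), TMEM98 (-2.73), MSI1, an RNA-binding protein of stem cells (-2.61), PCSK6, a proprotein convertase (-2.59), WNT3A, a Wnt ligand (-2.52), and NSUN7 (-3.30, in a chromosome 4 window with a median of -0.32) were also lower. So were TIMP2, an inhibitor of matrix metalloproteinases (429, 412 and 435 against 237, 217 and 198 CPM, -0.97), and NUP210, a nuclear pore membrane protein (144, 155 and 129 against 54.4, 53 and 50.8 CPM, -1.44), the last of which was also below WT with the inhibitor.

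Genes higher in the direct contrast and called against WT in Tyr19Phe cells only included DYSF, a membrane repair protein. It was 4.84, 5.66 and 5.58 CPM with the inhibitor, 7.7, 5.33 and 8.93 CPM in WT and 21.1, 22.9 and 19.6 CPM with Tyr19Phe (1.99 ± 0.17, edgeR adjusted p = 8.33e-11). Against WT it differed by 1.54 with Tyr19Phe and by an uncalled -0.45 with the inhibitor. INHBA, the subunit of activin A, was 72.8, 74.6 and 73.1 CPM with the inhibitor and 163, 158 and 169 CPM with Tyr19Phe, with little spread in either group (1.15 ± 0.06, edgeR adjusted p = 1.11e-16). CDH2, N-cadherin, was 149, 141 and 149 CPM with the inhibitor and 279, 258 and 267 CPM with Tyr19Phe (0.87 ± 0.05, edgeR adjusted p = 1.37e-15). CDH2 and CDH13 therefore differed in opposite directions within the cadherin superfamily. Of its 28 tested members 3 were higher and 10 lower, against 9.57% and 11.1% of all tested genes. COL5A1, a fibril-forming collagen, was higher by 0.69 in a window with a median of 0.21, and the prostaglandin transporter SLCO2A1 by 1.89. HIST1H2BJ (2.34), HSPB8 (2.16) and DIO2 (2.00) were low, at 0.165 to 1.19 CPM in the inhibitor libraries, and HSPB8 lost its call when 1 library was left out. DIO2 also differed from WT by an uncalled 1.02 with the inhibitor.

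A smaller set was called against WT with the inhibitor alone. TNC, the matrix protein tenascin C, was 74.4, 68 and 60.7 CPM with the inhibitor, 33.8, 33.3 and 32.4 CPM in WT and 35.8, 37.2 and 31 CPM with Tyr19Phe. WT and Tyr19Phe libraries overlapped and the inhibitor libraries stood well above both (direct -0.97 ± 0.09, edgeR adjusted p = 2.97e-10). Genes on the other strand overlap 100% of TNC, so its reads are uncertain if counting ignored strand. IL11, a cytokine of the IL6 family, was 8.16, 6.43 and 6.46 CPM with the inhibitor and 1.32, 2.38 and 0.981 CPM with Tyr19Phe (-2.16 ± 0.32, edgeR adjusted p = 4.49e-06). Against WT it differed by 1.52 with the inhibitor and by an uncalled -0.64 with Tyr19Phe. HES1, a Notch target repressor, was 34, 34 and 39.9 CPM with the inhibitor, 21.5, 23.1 and 21.4 CPM in WT and 21.1, 19.5 and 20 CPM with Tyr19Phe (-0.83). FN1, fibronectin (-0.21), the laminin chains LAMA3 (-0.29) and LAMB1 (-0.25) and the integrin ITGA3 (-0.20) were also higher with the inhibitor than in either other group.

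In the other direction, TINAGL1, a secreted matricellular protein, was 73.7, 74 and 72.9 CPM with the inhibitor, 146, 147 and 129 CPM in WT and 155, 144 and 143 CPM with Tyr19Phe. Its inhibitor libraries were nearly identical and lay at the lower level alone (1.00 ± 0.06, edgeR adjusted p = 1.21e-14), although 60.9% of the gene overlaps another on the same strand. S1PR1, the sphingosine 1-phosphate receptor (1.04), IGFN1 (1.19) and FGFR2, a fibroblast growth factor receptor (0.98), behaved likewise. BMP4, a BMP ligand (1.59), was called against WT with the inhibitor only (-1.05), but its uncalled difference with Tyr19Phe was 0.54. S1PR1, IGFN1 and BMP4 were chosen after their values had been seen, as were GSR, PPP1R1B, STARD3 and the other genes outside the naming rule.

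Among genes that moved the same way against WT, the inhibitor and Tyr19Phe differed in size. SNAI2, a repressor of epithelial genes, was 173, 177 and 189 CPM with the inhibitor, 114, 103 and 123 CPM in WT and 132, 129 and 139 CPM with Tyr19Phe, so the inhibitor group was the highest (-0.43). MMP2, a gelatinase, was 54.9, 58.6 and 56.5 CPM with the inhibitor, 39.9, 42.4 and 45.3 CPM in WT and 81.5, 80.6 and 87.2 CPM with Tyr19Phe, so there the mutant was the highest (0.55). AMOTL2, a junction protein and YAP and TAZ target, was 215, 203 and 206 CPM with the inhibitor, 313, 324 and 311 CPM in WT and 294, 277 and 287 CPM with Tyr19Phe, a wider decrease with the inhibitor (0.46). EGFR, the epidermal growth factor receptor, was lower than WT in both and lowest with Tyr19Phe (-0.42). For MTHFD2, a mitochondrial folate enzyme called in neither group against WT, the direct contrast joined smaller steps in opposite directions. It was 111, 109 and 103 CPM with the inhibitor, 118, 121 and 119 CPM in WT and 127, 129 and 134 CPM with Tyr19Phe (0.27).

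**Figure D4:**
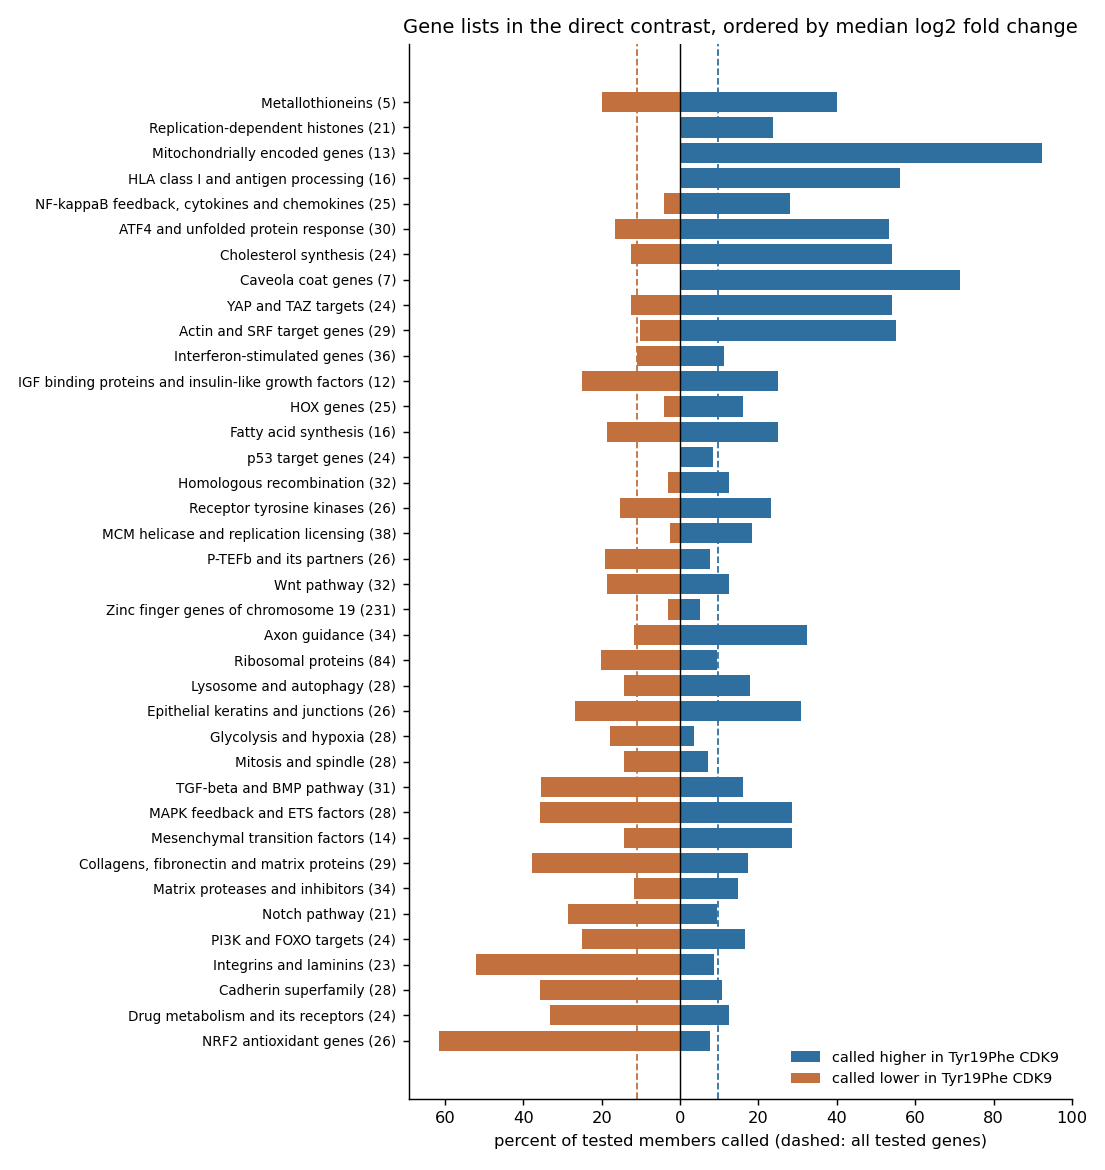
Members of each gene list called higher (to the right) or lower (to the left) in Tyr19Phe cells than in inhibitor-treated cells, as a percentage of the members tested, with lines at the 9.57% and 11.1% of all genes. NRF2 antioxidant genes and integrins and laminins reach far to the left, and mitochondrially encoded, ATF4, cholesterol and YAP and TAZ genes far to the right.

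The list counts that follow are to be read beside the 9.57% of all tested genes that were higher and the 11.1% lower. By function, genes of the actin cytoskeleton and its nuclear factor SRF were higher in Tyr19Phe cells in 16 of 29 tested members and lower in 3. Their median was 0.13, and the list was chosen after the values had been seen. Without the libraries that stood apart, 13 were higher and 1 lower. ACTB, cytoplasmic beta actin, was 6158, 6415 and 6056 CPM with the inhibitor and 7561, 7215 and 7481 CPM with Tyr19Phe (0.26). Vinculin, VCL (0.26), MYH9, a nonmuscle myosin (0.16, in a window with a median of 0.20), and TGFB1I1 (0.53) were also higher, whereas FLNA (-0.09), FHL2 (-0.17) and PDLIM5 (-0.16) were lower. Of 7 caveola coat genes, 5 were higher and none lower in the edgeR fit, among them CAVIN3 (0.56), EHD2 (0.16) and PACSIN2 (0.19), while CAV1 (0.03) and CAV2 (0.04) were not called. Outside 10 Mb windows shifted as a whole, 4 caveola coat genes were higher and none lower. YAP and TAZ targets were higher in 13 of 24 and lower in 3, with a median of 0.15. Against WT this list had 11 members lower with the inhibitor and 10 lower with Tyr19Phe, so the direct contrast also held genes that were below WT in both groups. AMOTL2, AXL (0.16), IGFBP3 (0.11) and TEAD1 (0.15) were of this kind, each further below WT with the inhibitor. ANKRD1, TGFB2 (1.03) and GADD45A (0.61) were higher than WT with Tyr19Phe, and the tissue factor gene F3 (0.23) and AJUBA (0.19) were below WT only with the inhibitor.

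Genes of amino acid and secretory stress, which ATF4 and the unfolded protein response control, were higher in Tyr19Phe cells in 16 of 30 members and lower in 5, with a median of 0.22. Leaving out 1 library at a time gave 10 to 16 higher and 4 or 5 lower, and leaving out both that stood apart 15 and 3. ATF4 was 128, 132 and 129 CPM with the inhibitor, 136, 134 and 142 CPM in WT and 162, 175 and 168 CPM with Tyr19Phe (0.38 ± 0.05, edgeR adjusted p = 7.56e-07), in a window with a median of 0.20. TRIB3, a pseudokinase induced by ATF4, was 16.7, 20.1 and 17.2 CPM with the inhibitor, 22.5, 22.2 and 20.3 CPM in WT and 37.4, 41.1 and 37.3 CPM with Tyr19Phe, with the mutant clearly apart (1.10). CHAC1, which degrades glutathione (0.95), and XBP1, a factor of the unfolded protein response (0.54, in a window with a median of 0.24), were higher, and the endoplasmic reticulum chaperones HSPA5 (-0.12), HSP90B1 (-0.22) and PDIA4 (-0.17) lower. ASNS (-0.05) and DDIT3 (0.48) were not called.

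Enzymes of cholesterol synthesis were higher in 13 of 24 members and lower in 3, with a median of 0.21, or in 10 and 1 without the libraries that stood apart. HMGCS1, which makes HMG-CoA, was 126, 127 and 129 CPM with the inhibitor, 148, 141 and 146 CPM in WT and 171, 154 and 157 CPM with Tyr19Phe, an opposite gene with narrow groups (0.34). FDPS (0.41), MVD (0.45) and DHCR7 (0.39) were higher, as was SREBF2, which encodes the controlling factor SREBP2 (0.32, in a window with a median of 0.22). TM7SF2, a sterol reductase, was lower (-0.83).

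Antigen presentation differed in one direction. Of 16 tested genes of HLA class I and antigen processing, 9 were higher in Tyr19Phe cells and none lower by edgeR, and 8 were higher by DESeq2, with a median of 0.30. HLA-B was 60, 52.3 and 57.4 CPM with the inhibitor, 45.9, 49.6 and 59.3 CPM in WT and 105, 94.8 and 80.5 CPM with Tyr19Phe (0.73 ± 0.09, edgeR adjusted p = 1.34e-07). Reads of HLA genes are hard to assign among alleles and paralogs. TAP1, a peptide transporter (0.66), B2M, the shared light chain (0.19), and PSMB9, an immunoproteasome subunit (0.81), were higher. Among NF-kappaB feedback genes and cytokines, 7 of 25 were higher and 1 lower, with a median of 0.25. IL6 was 4.18, 2.58 and 5.48 CPM with the inhibitor, 6.11, 5.44 and 7.75 CPM in WT and 13.2, 14.4 and 12.1 CPM with Tyr19Phe (1.69), and TNFAIP3, the A20 feedback inhibitor, was higher by 1.24. Outside windows shifted as a whole, the NF-kappaB list had 5 genes higher and none lower, and without the libraries that stood apart 6 and none (edgeR).

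Adhesion genes leaned toward the inhibitor, where 9.57% of all tested genes were higher and 11.1% lower in Tyr19Phe cells. Of 23 integrins and laminins tested, 12 were lower and 2 higher in Tyr19Phe cells, with a median of -0.18, and without the libraries that stood apart 7 were lower and 1 higher. ITGB4, a laminin receptor subunit, was 80.3, 81.9 and 96.3 CPM with the inhibitor, 127, 134 and 122 CPM in WT and 78.1, 66.9 and 61.7 CPM with Tyr19Phe, below WT in both groups (-0.32). ITGB8, which activates latent TGF-beta, was higher in Tyr19Phe cells than with the inhibitor (0.27). Of 29 collagens and matrix proteins, 11 were lower and 5 higher, with COL6A1 (-0.61), COL6A2 (-0.52), VCAN (-0.37) and COL12A1 (-0.29) lower and COL7A1 (0.34), COL8A1 (0.43) and LOXL2 (0.33) higher. Of 24 drug metabolism genes, 8 were lower and 3 higher, or 6 and 1 without the libraries that stood apart, with CYP1B1, a cytochrome P450 and an opposite gene, at 413, 444 and 457 CPM with the inhibitor and 273, 235 and 244 CPM with Tyr19Phe (-0.80). UGT1A6, a glucuronosyltransferase, was lower (-1.59), but 100% of it overlaps other UGT1A genes on the same strand.

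Signalling feedback split. Of 28 MAPK feedback genes and ETS factors, 8 were higher and 10 lower, and without the libraries that stood apart 4 were higher. SPRY4, a feedback inhibitor of receptor kinases, was 22.3, 18.2 and 26.6 CPM with the inhibitor, 17.5, 15.8 and 17.6 CPM in WT and 15.1, 14.9 and 12.7 CPM with Tyr19Phe (-0.65). DUSP5, an ERK phosphatase (-0.79), ETV5 (-0.52) and EGR1 (-0.48) were lower, and DUSP1 (0.35), DUSP4 (0.35), JUN (0.27) and CCND1, cyclin D1 (0.42), higher. DUSP6, the ERK phosphatase that often reports the pathway, was not called (-0.02) at 2.42 to 4.41 CPM. Of 31 genes of the TGF-beta and BMP pathway, 5 were higher, including INHBA, TGFB2, BMP4 and the receptor TGFBR2 (0.39), and 11 lower, including BMPR2 (-0.43), SMAD2 (-0.22), SKIL (-0.40) and PMEPA1 (-0.24). Of 34 axon guidance genes, 11 were higher and 4 lower, and without the libraries that stood apart 6 were higher. In that fit the higher genes over all tested fell from 1565 to 1035. NTN1, netrin 1, was 11.8, 7.85 and 9.04 CPM with the inhibitor and 26.1, 26.7 and 25.1 CPM with Tyr19Phe (1.43).

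Of 26 tested genes of P-TEFb and its partners, 2 were higher and 5 lower in Tyr19Phe cells, with a median of 0.01, where 20.7% of all tested genes were called in either direction. Without the libraries that stood apart, 2 were higher and 3 lower. AFF4 was 202, 205 and 199 CPM with the inhibitor and 171, 162 and 162 CPM with Tyr19Phe (-0.29 ± 0.05, edgeR adjusted p = 1.05e-05). AFF1 differed by -0.60 in a chromosome 4 window with a median of -0.32. CCNT1, cyclin T1 (-0.16, edgeR adjusted p = 0.0438), HEXIM1 (-0.16, edgeR adjusted p = 0.0195) and LARP7 (-0.24, edgeR adjusted p = 0.0379, in a window with a median of -0.23) were lower, and each lost its call without at least 1 of the libraries. CCNT1 also lost it with the upper quartile, no filter, only the compared groups, thinned Tyr19Phe libraries or the length trend removed (edgeR adjusted p 0.0521 to 0.0808). NELFB, a pausing subunit, was higher (0.26, in a window with a median of 0.21). CCNT2 (0.07), MEPCE (-0.11) and the F-box protein gene SKP2 (0.15) were not called.

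Homologous recombination genes, which the study examined, were called in 5 of 32 tested, 4 higher and 1 lower, with a median of 0.04, against 20.7% of all tested genes, and without the libraries that stood apart in 1 of each. NBN, a subunit of the break-sensing complex, was 158, 155 and 161 CPM with the inhibitor and 124, 118 and 119 CPM with Tyr19Phe (-0.39). DNA2, a resection nuclease (0.44), and EME1, a partner of the nuclease MUS81 (0.51), were higher. BRCA1 was 130, 122 and 118 CPM with the inhibitor and 125, 126 and 127 CPM with Tyr19Phe, with overlapping groups (0.04 ± 0.05, edgeR adjusted p = 0.707). BRCA2 (0.04 ± 0.08), RBBP8 (-0.02 ± 0.07) and RAD50 (0.35 ± 0.15, edgeR adjusted p = 0.1) were not called. For RAD50, 99.7% of the length is overlapped on the same strand, so its reads are uncertain. Of 38 replication licensing genes, 7 were higher and 1 lower, against 9.57% and 11.1% of all tested genes. Outside shifted windows 5 were higher and none lower. Against WT, 3 were higher and 6 lower with Tyr19Phe, and none higher and 7 lower with the inhibitor. Of all tested genes, 10.4% were lower than WT with Tyr19Phe and 2.73% with the inhibitor. The genes higher in the direct contrast were led by TYMS, thymidylate synthase (0.52), and MCM5 (0.42, in a window with a median of 0.20).

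Part of the difference followed chromosome position. Of 297 windows of 10 Mb with at least 10 tested genes, 30 had a median direct difference of at least 0.2 in size, 21 of them lower and 9 higher, and 14 of the 19 windows of chromosome 4 were lower. Those windows held 1375 genes, of which 36.9% were called, against 19.2% of genes elsewhere. The windows were chosen by the same direct differences, so a higher share there follows from the choice. Chromosome 4 had a median of -0.23 and 35.4% of its genes called lower, and chromosome 22 a median of 0.22 and 30.4% called higher. Against WT these medians were -0.22 and 0.21 with Tyr19Phe and 0.0049 and -0.02 with the inhibitor. Of the opposite genes, 6 of the 52 and 7 of the 41 lay in such windows, among them SPP1, SLC7A11, UGDH and SETD7 of chromosome 4. The part of DNA copy number in these shifts was not tested.

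**Figure D5:**
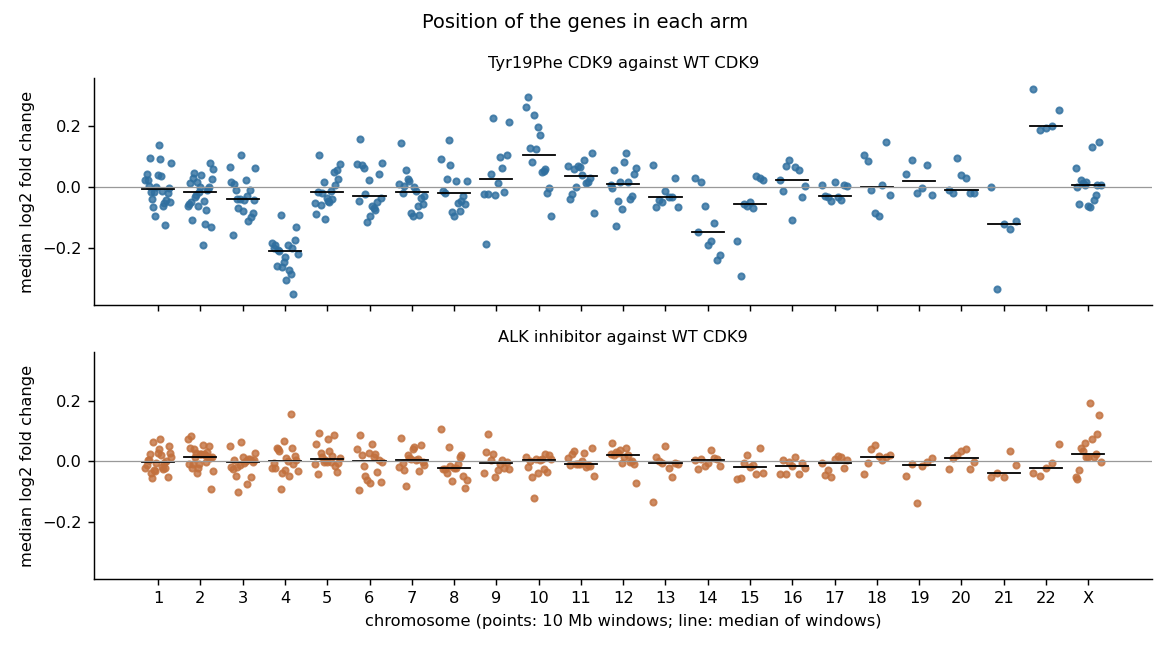
Median log2 fold change against WT (y axis) of the tested genes in each 10 Mb window (points), by chromosome (x axis), for Tyr19Phe above and for the inhibitor below, with a line at the median of the windows. In the Tyr19Phe panel chromosome 4 lies near -0.22 and chromosome 22 near 0.21, and in the inhibitor panel both lie near 0.

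Genes lower in Tyr19Phe cells were also longer. Their median listed transcript length was 6440 bases and their median genomic span 57196 bases, against 4845 and 24158 bases for higher genes and 4180 and 23884 bases for genes not called.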

How the data were processed

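RNA of 9 SKOV3 libraries was sequenced, 3 per group, and groups were taken from the labels. The authors deposited raw read counts per gene, with no normalization. The submitters' processing notes name CASAVA, HISAT2 2.0.5, featureCounts 1.5.0-p3 and hg38, and whether counting used strand is not given in the sources used here. No sample column was left out of use. Of 58735 listed genes, 16350 passed edgeR's filterByExpr (minimum count 10, minimum total 15).

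Counts were scaled by TMM and tested with edgeR's quasi-likelihood test (edgeR 4.0.16, limma 3.58.1, R 4.3.3), with 1 mean per group fitted to all 9 libraries and Benjamini-Hochberg adjustment over all tested genes. A gene was called at an adjusted p under 0.05. CPM are counts scaled by the TMM library size, and the floor of 3 counts covers counting error only. Tables and figures used Python 3.11.15, numpy 2.4.6, pandas 2.3.3 and matplotlib 3.10.9. The fit was tested on simulated data. Total counts of 18169050 to 29320184 per library limit the precision of low genes.

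The named genes were the 12 widest called protein-coding genes per direction with non-overlapping groups and a mean of at least 1 CPM, the 8 smallest adjusted p per direction, the 8 widest of each opposite pattern, up to 4 called members per list, and CDK9 with 14 related genes. The members and lists were chosen with earlier results of these data known, and the actin and SRF, caveola coat and ERBB2 neighbour lists after values had been seen. Some genes that meet this rule are not reported here. Genes sharing sequence with other genes on the same strand are uncertain. Because strand use in counting is not given, the same may hold for genes overlapped on the other strand. Among the genes described, such overlap covered 100% of TNC, OXTR, TAP1, CBR1 and AP000812.2, 92.7% of DIO2, 85.3% of CYP1B1 and 84.25% of MIEN1.

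Alternatives were DESeq2 1.42.0, other scalings, filters and thresholds, a replicate block, only the compared groups, thinned Tyr19Phe libraries, a length trend removed, shifted windows left out and each library left out. A fit without both libraries that stood apart was added after the data were seen. Promoters came from RefSeq (GRCh38.p14) and the CDK9 codon from GENCODE 44 on GRCh38.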

Additional observations from a re-analysis of the deposited data

How the results depend on the processing

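The direct counts kept more lower than higher genes under library size alone (1566 higher, 1810 lower) and the upper quartile (1659 and 1684), whereas opposite genes numbered 45 and 46 under library size alone. At an adjusted p under 0.01, 935 genes were higher and 1153 lower, opposite genes numbered 24 and 23, Tyr19Phe cells had 715 genes above WT and the inhibitor 167 above and 260 below, and the classes by group were 1094 for Tyr19Phe only, 149 for the inhibitor only and 44 moving the same way. With an absolute log2 difference of at least 1, 147 were higher and 192 lower, opposite genes numbered 0 and 1, Tyr19Phe gave 111 above and 182 below WT, the inhibitor 12 and 27, and the classes were 165, 18, 0 for the same way and 155 for neither. Without the libraries that stood apart, 1035 were higher, 25 genes were opposite with the inhibitor higher, and the classes were 184 for the inhibitor only, 52 for the same way and 666 for neither. Leaving out 1 library at a time gave 1169 to 1611 higher and 1454 to 1850 lower genes, 30 to 48 and 19 to 44 opposite genes (fewest without WT replicate 1), 185 to 268 for the inhibitor only, 63 to 87 for the same way, and 20 to 23 windows lower and 8 to 12 higher. A replicate block gave 1604 higher and 1861 lower and 67 and 47 opposite genes, but samples sharing a number did not deviate together (correlations -0.012 to 0.026), so they share only a number. Of uncalled genes, CCNT2 became -0.057 without both libraries, and leaving out 1 library at a time gave -0.063 to 0.03 for RBBP8, -0.0068 to 0.106 for BRCA2 and -0.0052 to 0.126 for CCNT2. The cause was not tested. Of 179 named genes called, 13 lost the call without 1 library.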

Other observations

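Replication-dependent histone genes, whose transcripts are mostly without poly(A) tails, were higher in Tyr19Phe cells in 5 of 21 tested and lower in none by edgeR, with a median of 0.87, and 3 were higher without the libraries that stood apart. HIST1H2BK was 3.56, 5.16 and 3.98 CPM with the inhibitor and 13, 13.5 and 10.2 CPM with Tyr19Phe (log2 difference 1.53). Among 25 HOX genes, 4 were higher and 1 lower, against 9.57% and 11.1% of all tested genes. Of 26 receptor tyrosine kinases, 6 were higher and 4 lower, and of 21 Notch pathway genes 2 were higher and 6 lower, or 1 and 2 outside shifted windows.

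The remaining lists are given as counts, where 9.57% of all tested genes were higher and 11.1% lower. Ribosomal protein genes were higher in 8 and lower in 17 of 84, and zinc finger genes of chromosome 19 in 12 and 7 of 231. The p53 targets were higher in 2 of 24, mitosis genes higher in 2 and lower in 4 of 28, glycolysis genes in 1 and 5 of 28, interferon-stimulated genes in 4 and 4 of 36, and Wnt genes in 4 and 6 of 32. Keratins and junctions were higher in 8 and lower in 7 of 26, mesenchymal transition factors in 4 and 2 of 14, matrix proteases and inhibitors in 5 and 4 of 34, lysosome genes in 5 and 4 of 28, fatty acid synthesis genes in 4 and 3 of 16, PI3K and FOXO targets in 4 and 6 of 24, and IGF binding proteins in 3 and 3 of 12. Without the libraries that stood apart, the higher genes numbered 3 for receptor tyrosine kinases and matrix proteases, 2 for Wnt and lysosome genes and 1 for fatty acid synthesis, Notch, mitosis and p53 genes, and the lower genes 4 for keratins and junctions and 3 for glycolysis.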
